A study of Mus musculus with 6 samples.

Results

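The acute phase reactants described here are 10 genes of the mouse liver: Apcs, Crp, Saa1, Saa2, Saa3, Saa4, Orm1, Orm2, Lcn2 and Hp. They were chosen by symbol, whatever their signal, and are represented by 14 of the 45281 probes of an Illumina WG-6 bead array. RNA came from the livers of 6 male C57BL/6 mice fed normal chow before a 24 h fast. The 3 wild-type mice and the 3 mice deficient in Creb3l3 (knockout) were littermates, and each gave 1 array. All groups were fasted, so a fed level was not measured. The sources used here give neither the ages nor the construction of the deleted allele. Creb3l3 encodes CREBH, a hepatocyte transcription factor held in the membrane of the endoplasmic reticulum until proteases release it.

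Acute phase proteins are secreted mainly by hepatocytes, and their transcripts are raised after infection or injury by interleukin-6, acting through STAT3 and C/EBP factors, and by interleukin-1, acting through NF-kB and C/EBP factors. In the mouse Saa1, Saa2, Saa3, Apcs, Orm1, Orm2, Lcn2 and Hp are induced in this way, whereas Saa4 is constitutive and Crp, a major reactant in humans, responds weakly. CREBH was first linked to this response through Apcs and Crp, which encode the pentraxins serum amyloid P component and C-reactive protein. The design compares knockout with wild type, and thereby asks whether these transcripts differ in the fasted liver when CREBH is missing.

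No member passed the test for a difference between genotypes, and the members' differences lay on both sides of 0. Lcn2 (4.4-fold) and Saa1 (3.54-fold) had the widest differences, both higher in the knockout. Saa3 (2.25-fold) and Apcs (1.57-fold) also had higher mean signals in the knockout, whereas Crp, Saa4, Orm1 and Hp differed by -0.16, 0.17, -0.11 and 0.26 on the log2 scale. These values are from the 5 arrays without knockout replicate 3. With all 6 arrays the log2 changes of Lcn2, Saa1, Saa3 and Apcs were 0.84, 1.45, 0.14 and -0.15, and Apcs stood at -0.031 in the 5 arrays under median scaling. That array was near background, with 4302 detected probes (detection p under 0.05) against 11846 to 16224 on the others and a mean signal of 87.3 arbitrary units against 149 to 252. Of the other arrays, knockout replicate 1 was the dimmest. In liver tissue, fewer cells of a type and less RNA per cell cannot be told apart.

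The calls are limma's, with p-values adjusted by the Benjamini-Hochberg method over all tested probes and a threshold of 0.05. A probe was tested if detected on at least 3 arrays. In the 5 arrays 49 of 14345 probes passed (0.342%), 9 higher (0.0627%) and 40 lower (0.279%) in the knockout, and with cyclic loess in place of quantile normalization 25 were higher and 58 lower, against 0 and 4 with median scaling. Without wild-type replicates 1, 2 or 3 in turn the number was 15, 9 and 9, without knockout replicate 1 it was 41, and without knockout replicate 2 it was 2234. Of the 10 members 9 could be tested and 0 passed. An unadjusted p under 0.05 was met by 4 members with a higher signal (Apcs, Saa1, Saa3 and Lcn2) and by 0 with a lower one, beside 4.66% and 7.47% of all probes (12.1% in either direction). Across all 6 arrays 0 of 14494 probes passed (0%) and 0 members, with 1 member, Saa1, higher at an unadjusted p under 0.05 and 0 lower, beside 0.552% and 3.3% of all probes (3.85% in either direction). In the 5 arrays the 9 members had a median log2 change of 0.55 against -0.03 for all tested probes. Of the 9, 7 lay above 0 beside 45.3% of all probes, and in the 6 arrays 5 did beside 27.3%.

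**Figure D1:**
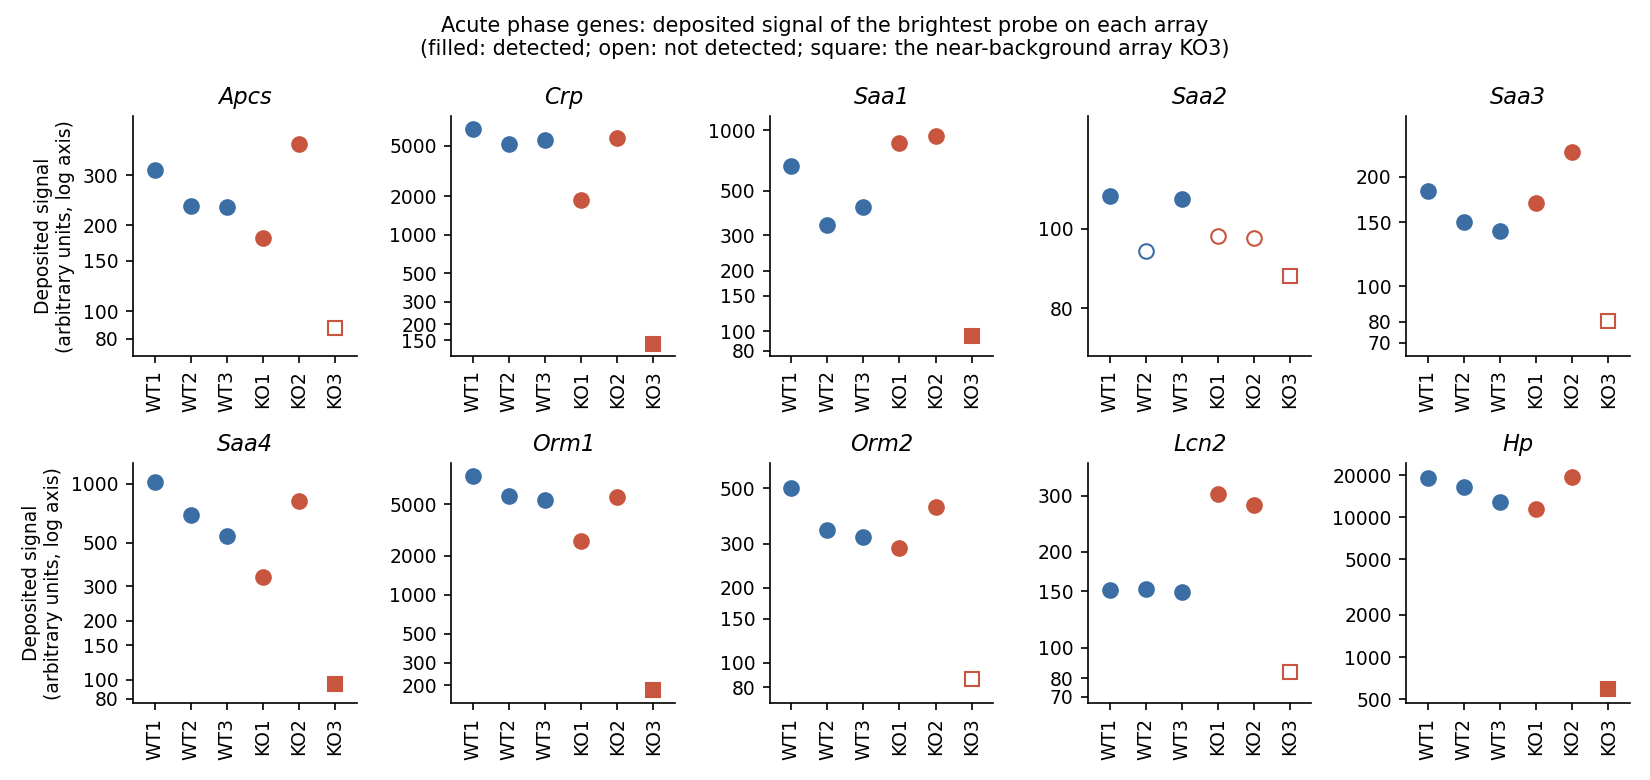
Deposited signal (arbitrary units, log axis) of the brightest probe of each of the 10 genes on every array, wild type in blue and knockout in red, with open symbols where the probe was not detected. For Saa1 and Lcn2 both knockout replicates 1 and 2 lie above all 3 wild-type arrays, and the squares of knockout replicate 3 lie lowest for every gene.

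The serum amyloid A genes encode small apolipoproteins of high-density lipoprotein. Saa1 and Saa2 encode the forms induced in hepatocytes, Saa3 is made also by macrophages and adipose tissue, and Saa4 is constitutive. In the RefSeq gene table (assembly GRCm38.p6) the 4 lie near each other on chromosome 7, with Saa1 and Saa2 as direct neighbours. The table lists Saa1 and Saa2 as synonyms of each other, so an array symbol may refer to either gene, and their transcripts are close enough that a probe may not separate them. The windows upstream of their starts are shown because they are almost the same. Each is given for the 250 bases before the RefSeq start (GRCm38.p6), with capitals marking matches on either strand to TTNNGCAA (C/EBP), TTCNNNGAA (STAT3), TGACG (the core of a CRE, the element that CREB-type factors bind) or an NF-kB motif. The windows are chr7:46742981-46743230 on the minus strand and chr7:46751583-46751832 on the plus strand.
Saa1: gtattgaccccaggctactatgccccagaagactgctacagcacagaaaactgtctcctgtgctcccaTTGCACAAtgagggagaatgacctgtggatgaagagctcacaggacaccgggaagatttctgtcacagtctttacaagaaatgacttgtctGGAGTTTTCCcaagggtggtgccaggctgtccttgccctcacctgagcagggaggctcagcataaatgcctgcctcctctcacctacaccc
Saa2: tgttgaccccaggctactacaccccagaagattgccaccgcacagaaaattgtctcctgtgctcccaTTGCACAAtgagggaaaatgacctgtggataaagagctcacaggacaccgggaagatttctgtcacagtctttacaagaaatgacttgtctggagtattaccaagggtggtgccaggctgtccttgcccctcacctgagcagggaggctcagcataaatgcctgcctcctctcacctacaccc

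The Saa1 and Saa2 windows were identical in 238 of 251 aligned columns, 94.8%. Both hold TTGCACAA, a match to the C/EBP letters. The NF-kB motif matched in the Saa1 window as GGAGTTTTCC, 91 to 82 bases before the start, and had no match in the Saa2 window. Of 32851 RefSeq windows of the same length, 9.56% hold the C/EBP letters and 4.63% the NF-kB motif. No 2 marked matches overlapped in the windows printed here. A match is a description of the letters, and binding was not measured.

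On the wild-type arrays 1, 2 and 3 the brighter Saa1 probe read 663, 339 and 414. On the knockout arrays 1, 2 and 3 it read 864, 940.0 and 94.1. Both knockout replicates 1 and 2 were above every wild-type mouse, even though the array of replicate 1 was dim. Normalized log2 values came to 8.79, 8.04 and 8.39 for wild type and 11.04 and 9.42 in the knockout, and the groups did not overlap. The log2 change was 1.82 ± 0.43 (SE; n = 3 and 2; limma adjusted p = 0.202), with a 95% interval of 0.82 to 2.82. Across all 6 arrays, normalized together, they came to 8.54, 7.80 and 8.15 for wild type and 10.78, 9.17 and 8.89 in the knockout. Saa1 was the 1 member whose 3 knockout arrays all lay above the 3 wild-type arrays, and its probe was detected on each of them. The log2 change in that fit was 1.45 ± 0.54 (SE; limma adjusted p = 0.653).

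The place of the Saa1 probe within each array gives the same order. It had to, since quantile normalization sets each value from that place, so it adds no separate evidence. It stood above 95.6%, 93.6% and 94.7% of all probes on the wild-type arrays, and above 98.8%, 96.9% and 96.4% on those of knockout replicates 1, 2 and 3. The second Saa1 probe was near background, with signals of 104, 93.7 and 96.9 in wild type and 101, 109 and 78.4 in the knockout. It had a log2 change of 0.37 ± 0.17 (SE; limma adjusted p = 0.432).

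The single Saa2 probe was detected on 2 of 3 wild-type arrays and on 0 of 3 knockout arrays. It read 109.8, 93.9 and 109 for wild type and 98.0, 97.4 and 87.5 in the knockout, so that the groups overlapped. It did not reach the number of detected arrays needed for a test. No fold is given, since its mean log2 signal in wild type, 4.86, lay below the lowest detected signal of knockout array 1, 4.94.

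Saa3 read 183, 150.2 and 142 for wild type and 169, 235 and 80.5 in the knockout, the last not detected. The deposited signals of knockout replicate 1 thus lay among those of wild type. Normalized log2 values came to 6.44, 6.27 and 6.10 for wild type and 7.89 and 6.98 in the knockout, with no overlap. Knockout minus wild type was 1.17 ± 0.27 (SE; limma adjusted p = 0.178) in the 5 arrays and 0.14 ± 0.86 (SE; limma adjusted p = 0.931) in the 6.

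Saa4 read 1018, 697 and 542 in wild type and 334, 813 and 95.02 in the knockout. Its normalized log2 signals, 9.46, 9.24 and 8.84 for wild type and 9.51 and 9.19 in the knockout, overlapped. The log2 change was 0.17 ± 0.22 (SE; limma adjusted p = 0.783), with a 95% interval of -0.34 to 0.67. Its direction turned to -0.59 under median scaling and to -0.0010 without wild-type replicate 3.

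A difference between 2 probes of the same array involves no scaling between arrays. The added offset of 16 still makes it depend in part on array brightness, and draws a faint minus a bright probe toward 0 on a dim array. The background-corrected log2 signal of Saa1 minus that of Saa4 was -0.68, -1.23 and -0.46 for the wild-type mice and 1.62 and 0.23 for the first and second knockout mice. Both knockout mice lay above all 3 wild-type mice, with a mean difference of 1.71 between genotypes. For Saa3 minus Saa4 the values were -3.13, -3.02 and -2.76 for wild type and -1.48 and -2.20 in the knockout. Both knockout mice were again above all wild-type mice. The pairs were chosen after the values were seen and were not tested.

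Lcn2 encodes lipocalin-2, which binds bacterial iron carriers and is made by hepatocytes in the acute phase and by neutrophils. The window before its start, chr2:32387740-32387989 on the minus strand of GRCm38.p6, is shown because Lcn2 and Saa1 had the widest differences in the 5 arrays. It holds 1 match to the C/EBP letters, marked in capitals.
Lcn2: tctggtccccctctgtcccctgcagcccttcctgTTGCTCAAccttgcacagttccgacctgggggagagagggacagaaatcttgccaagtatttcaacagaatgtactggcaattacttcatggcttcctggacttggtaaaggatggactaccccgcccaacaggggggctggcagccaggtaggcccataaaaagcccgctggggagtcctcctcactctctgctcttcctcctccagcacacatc

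On the wild-type arrays 1, 2 and 3 the Lcn2 probe read 152, 153 and 149.96. On the knockout arrays 1, 2 and 3 it read 303, 280.2 and 83.8, the last not detected. The wild-type mice were almost level, and knockout replicates 1 and 2 were at 2-fold and 1.85-fold their mean before any processing. Of the 9 tested members, 2, Saa1 and Lcn2, had deposited signals of both these mice above all 3 wild-type mice, beside 1.62% of all tested probes, and 0 had both below, beside 10.1%. Normalized log2 values came to 5.98, 6.32 and 6.26 for wild type and 9.32 and 7.33 in the knockout. Knockout minus wild type was 2.14 ± 0.49 (SE; n = 3 and 2; limma adjusted p = 0.176), with a 95% interval of 1.02 to 3.26. After normalization the 2 knockout arrays differed by more from each other than the nearer of them did from the wild-type mean. Across all 6 arrays the log2 change was 0.84 ± 1.12 (SE; limma adjusted p = 0.703), with the undetected array at 4.36.

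**Figure D2:**
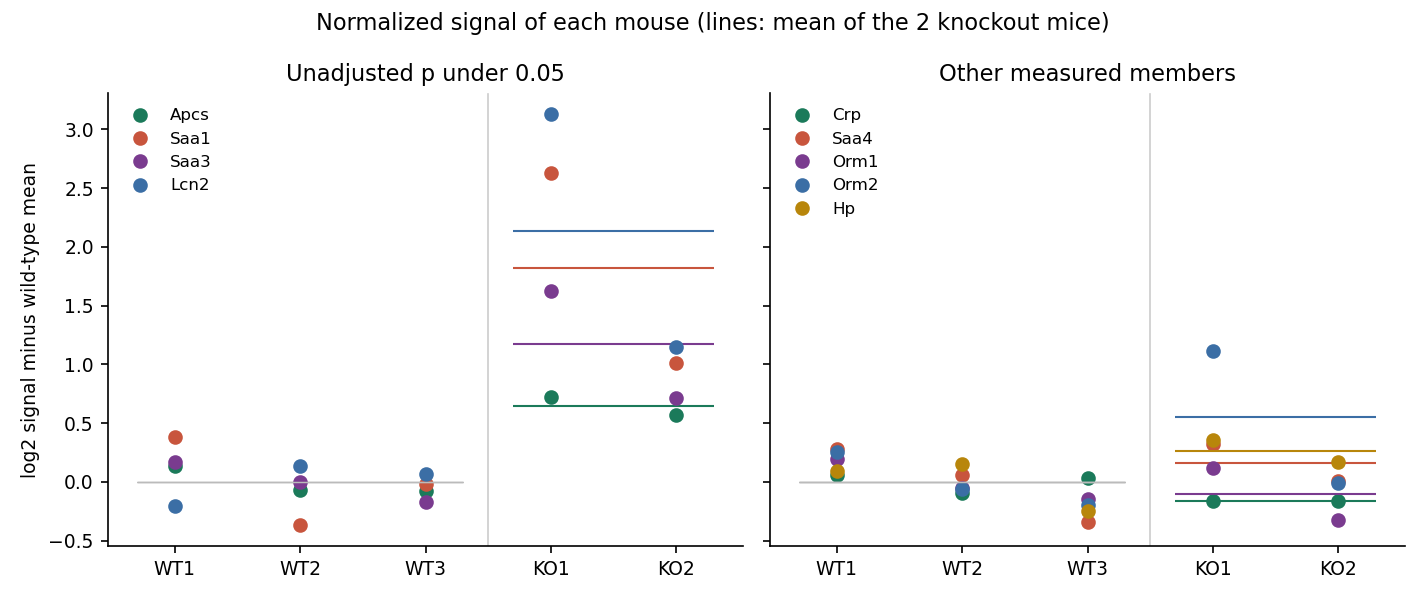
Normalized log2 signal of each mouse minus the wild-type mean (y axis) for the 3 wild-type mice and knockout replicates 1 and 2 (x axis), with short lines at the mean of both knockout mice. The left panel holds the members with an unadjusted p under 0.05 (limma), the right panel the others. Apcs, Saa1, Saa3 and Lcn2, in the left panel, lie above all wild-type mice in both knockout mice. In the right panel Hp does so too, and Orm2 and Saa4 lie above wild type on the array of knockout replicate 1 alone.

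Apcs and Crp are the pentraxin genes, and in the RefSeq table both lie on chromosome 1. Pentraxins bind microbial surfaces and cell debris and activate complement. Their windows are shown because CREBH was first linked to these 2 genes: chr1:172895055-172895304 on the minus strand for Apcs and chr1:172697806-172698055 on the plus strand for Crp (GRCm38.p6). The capitals mark TTCTAGGAA, which matches the STAT3 letters, in Apcs, and the CRE core in Crp.
Apcs: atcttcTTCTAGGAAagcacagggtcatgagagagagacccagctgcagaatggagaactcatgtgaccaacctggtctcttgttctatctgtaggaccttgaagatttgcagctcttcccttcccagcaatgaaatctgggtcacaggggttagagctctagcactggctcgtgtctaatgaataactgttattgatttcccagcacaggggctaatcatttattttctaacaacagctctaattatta
Crp: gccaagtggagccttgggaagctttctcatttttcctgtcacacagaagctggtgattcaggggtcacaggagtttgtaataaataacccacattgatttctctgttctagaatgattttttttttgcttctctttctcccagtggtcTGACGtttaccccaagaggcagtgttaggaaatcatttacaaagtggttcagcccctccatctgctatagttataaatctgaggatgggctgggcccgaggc

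TGACG stands 102 to 98 bases before the start of Crp and has no match in the Apcs window. Of all windows of this length 17.8% hold these letters and 7.02% the STAT3 letters. The full CRE, TGACGTCA, had no match in the windows of the 8 members that the table holds, and 1.55% of all windows hold it.

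Apcs read 312, 232.9 and 232.8 for wild type and 181, 386 and 87.2 in the knockout, the last not detected. In knockout replicate 1 the deposited signal was below and in replicate 2 above all wild-type mice. Normalized log2 signals were 7.51, 7.31 and 7.30 for wild type and 8.09 and 7.95 in the knockout, and did not overlap. The log2 change was 0.65 ± 0.16 (SE; limma adjusted p = 0.226), with a 95% interval of 0.27 to 1.02. It was -0.15 ± 0.66 (SE; limma adjusted p = 0.903) across all 6 arrays and -0.031 under median scaling, a setting in which the median of all probes moved to -0.42.

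Crp read 6785, 5108 and 5519 in wild type and 1878, 5747 and 141 in the knockout. It was detected on every array. Its normalized log2 signals were 12.37, 12.22 and 12.35 for wild type and 12.15 in both knockout mice, just below the lowest wild-type value. Knockout minus wild type was -0.16 ± 0.15 (SE; limma adjusted p = 0.688), and the 95% interval of -0.52 to 0.19 leaves room for a change of either sign. The second Crp probe was detected on 0 of the 6 arrays. Apcs minus Crp within the same array was -4.82, -4.98 and -5.09 in wild type and -4.12 and -4.19 in the knockout, again without overlap. The added offset of 16 enters this difference too.

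Orm1 and Orm2 encode orosomucoids, plasma proteins that carry drugs and lipids. Their sequences are close, and their probes may share targets. Orm1 read 8226, 5721 and 5358 in wild type and 2595, 5702 and 183 in the knockout. Its normalized log2 signals were 12.64, 12.39 and 12.30 against 12.56 and 12.12, which overlapped. The log2 change was -0.11 ± 0.20 (SE; limma adjusted p = 0.848).

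Orm2 read 503, 340.2 and 319 in wild type and 288, 421 and 86.4 in the knockout, the last not detected. Normalized log2 signals were 8.35, 8.04 and 7.90 for wild type and 9.21 and 8.09 in the knockout. Knockout replicate 2 lay inside the wild-type range and replicate 1 above it. The log2 change of 0.55 ± 0.31 (SE; limma adjusted p = 0.503) rested on knockout replicate 1, since it was -0.0041 without that mouse. It was -0.18 under median scaling and -0.60 across all 6 arrays.

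Hp encodes haptoglobin, which binds free haemoglobin, and was measured by 3 probes. The brightest read 18952, 16347 and 12824 in wild type and 11429.6, 19422 and 586 in the knockout. Its normalized log2 signals were 13.94, 14.00 and 13.59 for wild type and 14.20 and 14.01 in the knockout, which put both knockout mice just above wild type. Knockout minus wild type was 0.26 ± 0.18 (SE; limma adjusted p = 0.580). The other probes gave 0.22 ± 0.17 and 0.33 ± 0.17, so the 3 probes were alike in direction and size. Under median scaling the brightest stood at -0.10.

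**Figure D3:**
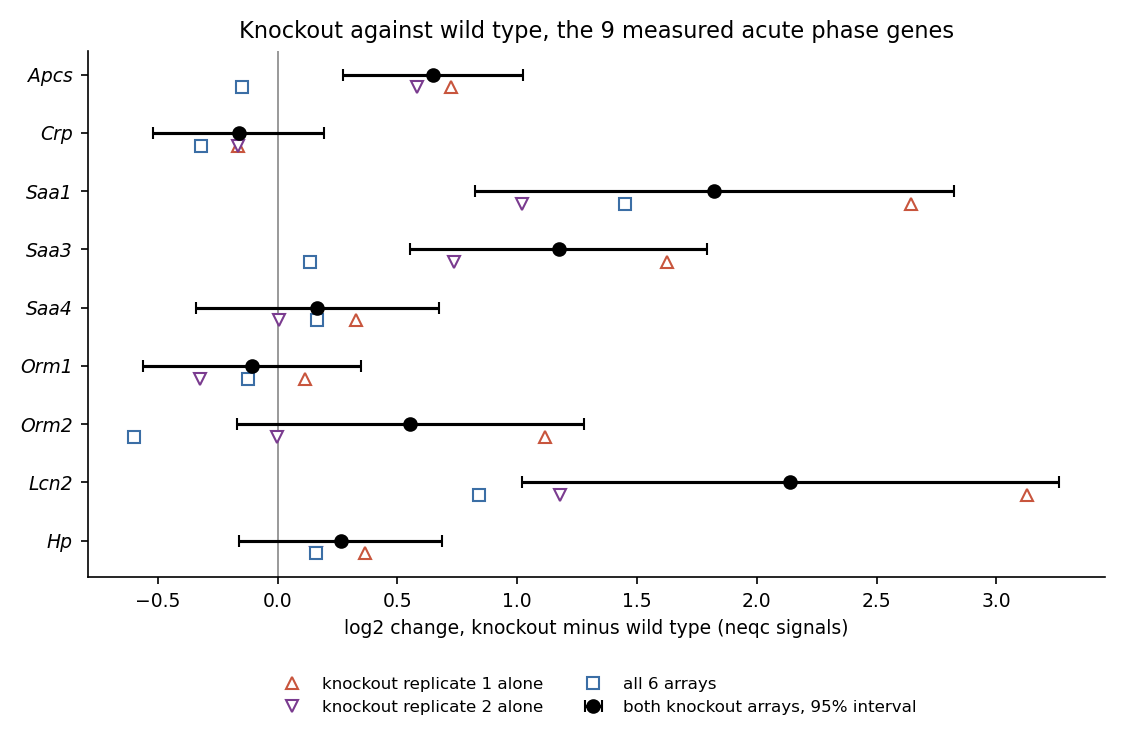
Log2 change (knockout minus wild type, x axis) of the 9 tested genes in the 5 arrays with its 95% interval from limma (black), beside the change with knockout replicate 1 alone, replicate 2 alone and with all 6 arrays (open symbols). The intervals of Apcs, Saa1, Saa3 and Lcn2 lie above 0 before adjustment, and the changes with replicate 1 alone lie to the right of those with replicate 2 alone for every gene but Crp, where they coincide.

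The size of the normalized changes differed between the 2 knockout arrays. Each mouse gave 1 array and that of replicate 1 was dim, so a difference between the mice themselves was not tested. In deposited signal replicates 1 and 2 stood at 1.83-fold and 1.99-fold the wild-type mean for Saa1, and at 2-fold and 1.85-fold for Lcn2. For Saa3 they stood at 1.07-fold and 1.48-fold, for Orm2 at 0.74-fold and 1.09-fold and for Apcs at 0.70-fold and 1.49-fold. With replicate 1 as the single knockout array, log2 changes were 3.13 for Lcn2, 2.65 for Saa1, 1.62 for Saa3, 1.12 for Orm2 and 0.72 for Apcs, and all 5 passed (limma adjusted p = 0.00147, 0.00446, 0.00577, 0.0154 and 0.0281). In that fit 787 probes were higher, 5.89% of those tested, and 1447 lower. With replicate 2 as the single knockout array the changes were 1.18 for Lcn2, 1.02 for Saa1, 0.74 for Saa3 and 0.58 for Apcs, and 0 members passed (limma), beside 0.0921% of all probes with a higher call. In that fit 4 members were higher by unadjusted p under 0.05, beside 5.62% of all probes. A lone knockout array is assumed to vary like the wild-type arrays.

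By role, the 8 inducible genes had 7 tested members with log2 changes from -0.11 to 2.14 and a median of 0.65, with 6 of 7 above 0. In the 6-array fit their median was 0.14, with 4 of 7 above 0. In the 5 arrays the 2 constitutive or weakly induced genes stood at -0.16 (Crp) and 0.17 (Saa4). In the normalized data of the 5 arrays both knockout mice lay above all wild-type mice for 5 of 9 members (Apcs, Saa1, Saa3, Lcn2 and Hp) and below them for 1 (Crp). Of all tested probes, 12.9% lay above and 16.4% below in this way. In the 6 arrays 1 lay above (Saa1) and 1 below (Crp), beside 3.99% and 13.4% of all probes. Relative to the median of all probes under median scaling, Lcn2 stood at 1.89, Saa1 at 1.55, Saa3 at 0.97 and Apcs at 0.39. Hp stood at 0.33 and Orm2 at 0.25, and Crp, Orm1 and Saa4 at -0.41, -0.31 and -0.16.

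Related gene lists had median log2 changes between -0.05 and 0.24. Of 24 other positive acute phase proteins 22 were tested and 0 passed, and their median log2 change was 0.22. Of the 22, 18 lay above 0, beside 45.3% of all probes. By unadjusted p under 0.05 there were 4 with a higher signal and 0 with a lower one, beside 4.66% and 7.47% of all probes. The hepcidin gene Hamp, whose product blocks iron export, had signals of 9042, 7302 and 4935 in wild type and 10784, 17172 and 312 in the knockout. Its log2 change was 1.38 ± 0.22 (SE; limma adjusted p = 0.0609). The endotoxin co-receptor Cd14 stood at 0.82 ± 0.17 (limma adjusted p = 0.139). The metallothioneins Mt1 and Mt2, which bind zinc and copper, stood at 0.64 and 0.88 (limma adjusted p = 0.333 and 0.365).

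Of the 10 negative acute phase proteins, whose transcripts drop in inflammation, 10 were tested and 0 passed. Of these, 6 lay below 0 and 4 above, beside 45.3% of all probes above 0. At an unadjusted p under 0.05, 1 was lower, beside 7.47% of all probes. It was the transferrin gene Trf at -0.38 ± 0.16 (limma adjusted p = 0.398), and the median of the list was -0.04. The next were Ahsg at -0.22, Serpina6 at 0.20 and Igf1 at 0.13.

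Cytokine receptors and signalling genes had 13 tested members of 16, of which 0 passed. By unadjusted p under 0.05 there were 0 above and 2 below wild type, beside 4.66% and 7.47% of all probes. The 2 were Il1rap, the accessory chain of the interleukin-1 receptor, at -0.83 ± 0.17 (limma adjusted p = 0.133) and Socs3. Socs3, a feedback inhibitor of STAT3 signalling that STAT3 itself induces, stood at -0.62 ± 0.26 (limma adjusted p = 0.399). Il1rap had normalized log2 signals of 10.14, 10.02 and 10.19 for wild type and 9.41 and 9.16 in the knockout. Both knockout mice lay below all wild-type mice, as did 16.4% of all tested probes. The kinase genes Ikbkb and Jak2, of the NF-kB and cytokine receptor pathways, stood at -0.73 and -0.34 (limma adjusted p = 0.453 and 0.491).

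Transcription factors of acute phase genes had 9 tested members of 10, with 0 passing (limma) and a median of 0.08. At an unadjusted p under 0.05 there were 0, beside 12.1% of all probes in either direction. Nfkb1 and Rela, the NF-kB subunit genes, stood at -0.32 and 0.22. Receptors and partners of acute phase proteins had 6 tested of 8 and 0 passing. At an unadjusted p under 0.05, 1 was higher, beside 4.66% of all probes. It was Fpr2, a formyl peptide receptor that also binds serum amyloid A, at 0.69 ± 0.16 (limma adjusted p = 0.182). The haem oxygenase gene Hmox1 stood at 0.48 (limma adjusted p = 0.478). Among CREBH, its proteases and related factors 4 of 6 were tested and 1 fell, Creb3l3 itself. It fell 4.99-fold (limma adjusted p = 0.00271) and did not pass under median scaling or across all 6 arrays, but whether its probe lies in the deleted part is not known here, so this is no check of the labels. Mbtps1, a protease that releases CREBH, stood at -0.06, and the stress genes Xbp1 and Hspa5 at 0.06 and 0.02.

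**Figure D4:**
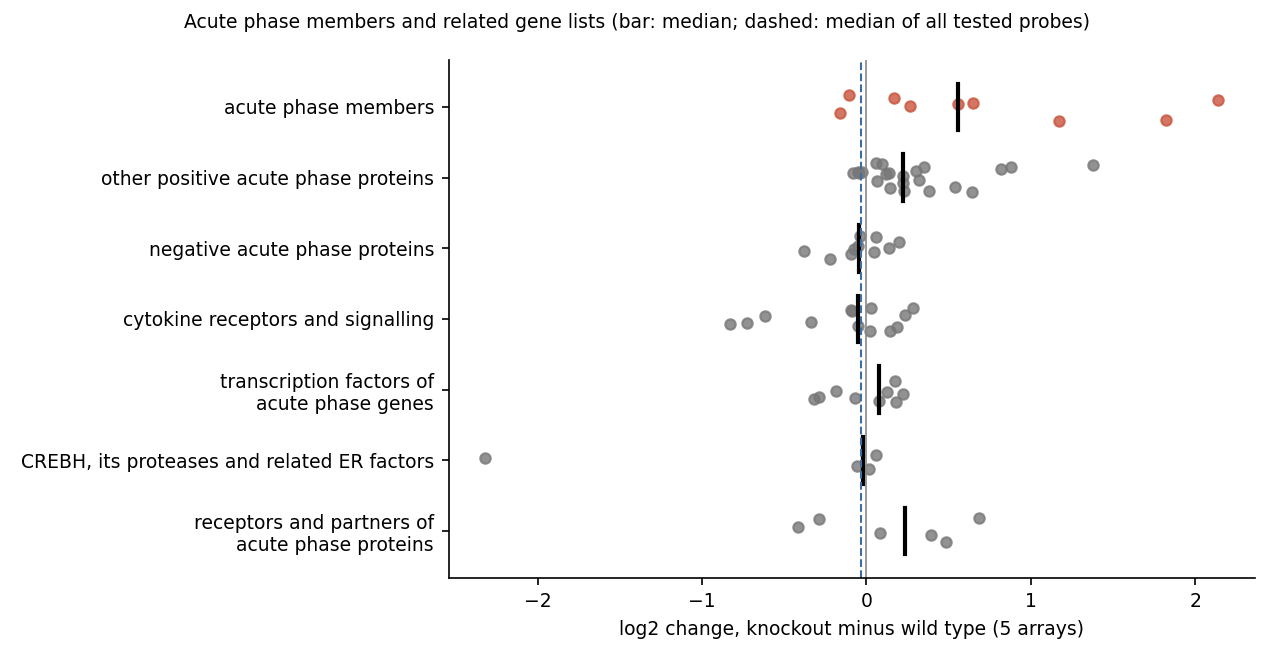
Log2 change (knockout minus wild type, 5 arrays, x axis) of each tested gene of the acute phase members and of the 6 related lists (rows), with a bar at each median and a dashed line at the median of all tested probes. The members have a median of 0.55 and the other positive acute phase proteins 0.22, and the point near -2.32 is Creb3l3.

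Markers of other cells were read beside these results, since Lcn2 and Saa3 are also made outside hepatocytes. Of 7 neutrophil markers on the array 2 were tested. S100a8 read 143, 135 and 126 for the wild-type mice and 105 and 268 for the first and second knockout mice, and S100a9 read 115, 103 and 102 against 103 and 164. After normalization S100a9 came to 4.89 to 5.13 for wild type and 5.27 and 6.16 in the knockout, both above wild type, and S100a8 to 5.73 to 5.95 against 5.48 and 7.24, of which the second alone was above. Of the 5 others, Mpo, Ngp and Camp were not detected on these arrays, Csf3r was detected on knockout replicate 1 alone and Retnlg on knockout replicate 2 alone. The summed normalized signal of the neutrophil list was 71.3 to 79.1 in wild type and 99.6 and 226 in the knockout, and its part in the Lcn2 result was not tested.

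Of 10 Kupffer cell and macrophage markers 9 were tested in the 5 arrays and 0 passed. Of these, 8 lay above 0 and 2 were higher at an unadjusted p under 0.05, beside 45.3% and 4.66% of all probes. Across all 6 arrays 3 of 9 lay above 0, beside 27.3% of all probes, with 0 higher at an unadjusted p under 0.05. Their median there was -0.76 against -0.28 for all probes. In the 5 arrays the summed signal of this list was 1507 to 1684 in wild type and 1767 and 1912 in the knockout. The part of these cells in the results for Saa3 and Lcn2 was not tested. Of 9 hepatocyte markers 8 were detected on all wild-type arrays, with sums of 73098 to 80089 in wild type and 79117 and 74653 in the knockout. Erythroid markers summed to 21421 to 26154 in wild type, 9188 in knockout replicate 1 and 23242 in replicate 2. Of 5 adipocyte markers 0 were tested.

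Genes outside the member list with the nearest profiles over the 5 arrays were sought for the 4 members that spanned over 1 log2 unit. The measure was the root mean square distance between centred log2 signals. Members were left out of this search, so it does not show how near the members lay to each other. Nearest to Saa1 were Gm4956 at 0.34, the hepcidin gene Hamp2 at 0.45, Limk1 at 0.47, Mmd2 at 0.49 and Ccdc71 at 0.52. Nearest to Lcn2 were Gm4956 at 0.51, Ctcfl at 0.54, Aldh1b1 at 0.55, Hamp2 at 0.56 and Limk1 at 0.58, so that 3 genes stood near both. Nearest to Saa3 were Mmd2 at 0.16, Rpph1 at 0.18, and Slc13a2, Vps39 and Enho at 0.19 to 0.20. Nearest to Orm2 were Magel2 at 0.08, Kif23, Nlrc3 and Gpr65 at 0.09, and Capn1 at 0.11, all led by the array of knockout replicate 1.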

How the data were processed

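Per the file headers, each deposited array table gives a mean bead signal per probe, an intensity on a linear scale that is neither normalized nor background-subtracted, and a detection p-value from the authors' software (BeadStudio 3, per the submitters' processing notes). The authors' value table also holds intensity values. It matched quantile-normalized signals, with its columns for wild-type replicates 2 and 3 exchanged, and was used as an alternative only. How the authors normalized it is not stated in what was used here. Column medians were 91.7, 91.7, 91.7, 91.7, 91.7 and 91.6, and scale (linear), centring (none) and direction needed no further assumption.

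The neqc function of limma 3.58.1 (R 4.3.3) corrected background by normexp, using the detection p-values, added an offset of 16, quantile-normalized and took log2. Probes detected (p under 0.05) on 3 or more arrays were fitted with genotype as the only term (lmFit, eBayes, two-sided), and the 5 arrays were normalized without knockout replicate 3. A gene was represented by its brightest probe. The fit and its adjusted calls were tested on simulated log2 signals. Background correction, normalization and the detection filter were not part of that test. Its noise came from the wild-type spread, so a dim knockout array was not simulated. Figures were drawn with matplotlib 3.10.9. The number of arrays limits the precision.

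The members, the gene lists, the roles and the use of 5 arrays were chosen with earlier results of these data known. The rule for named genes took all members with every probe and Creb3l3. From each pathway list it took the called genes and up to 4 others of smallest p. For members spanning over 1 log2 unit it took the 5 nearest profiles among genes that were not members. Motifs, within-array pairs and the marker genes named were chosen after values were seen. Promoter windows are from RefSeq, which held 8 of the 10 members.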

Additional observations from a re-analysis of the deposited data

How the results depend on the processing

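In the 5 arrays 0 of 9 tested members passed, and this count was also 0 under 16 of 18 alternatives. When 1 mouse was left out it was 0 to 5. With the replicate number as a replicate block it was 2 (limma, Saa1, adjusted p = 0.00607, and Lcn2, adjusted p = 0.0159). Both were higher, beside 13 of 14345 probes called higher and 34 called lower. That fit left 1 residual degree of freedom. The labels do not say that a number marks a shared litter or batch, so the numbers were not taken as pairs. Across all 6 arrays the deviations of same-numbered mice correlated at -0.05, -0.05 and 0.04. These values cannot decide on pairing, since the near-background array of knockout replicate 3 weighs on every knockout deviation. With 2 knockout arrays centring fixes such correlations (-0.13), and they say nothing about pairing. The block moved the count of all called probes to 47. With the numbers of wild-type replicates 2 and 3 exchanged, chosen after the data were seen, 0 members passed. Across all 6 arrays 0 members passed. With array weights 5 did, all higher, beside 1030 of 14494 probes called higher and 1802 called lower.

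Of all probes 49 passed in the 5 arrays. The number was 83 with cyclic loess (25 higher, 58 lower), 4 with median scaling (0 and 4), 85 with no background correction, 108 with an offset of 50, 1 with no detection filter, 122 with a trended robust variance, 32 with array weights, 83 in the authors' value table, 9 to 2234 when a mouse was left out and 0 with all 6 arrays. Across all 6 arrays 0 passed, 3 with cyclic loess, 5 with a trended robust variance, 2832 with array weights and 0 to 49 when a mouse was left out. Over the pathway lists 1 gene passed (Creb3l3). The count was 3 with cyclic loess, no background correction, an offset of 50, a trended robust variance or the authors' value table, 0 with median scaling or all 6 arrays, 2 with the exchanged block and 1 to 14 when a mouse was left out.

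Saa1, Saa3 and Lcn2 were above 0 under all 17 alternatives, from 1.02 to 2.65, 0.14 to 1.62 and 0.84 to 3.13 on the log2 scale, and Crp was below 0 under all 17. Directions turned under median scaling for Apcs (-0.031), Saa4 (-0.59), Orm2 (-0.18) and Hp (-0.10). They turned for Saa4 with the replicate block (-0.0039) and without wild-type replicate 3 (-0.0010). When a mouse was left out Saa4 ran from -0.0010 to 0.33, Orm2 from -0.0041 (without knockout replicate 1) to 1.12 and Orm1 from -0.32 to 0.12 (without knockout replicate 2). They also turned with all 6 arrays for Apcs (-0.15) and Orm2 (-0.60). The cause was not tested. Signals near background limit Saa2 and the second probes of Saa1 and Crp.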
